A study of Mus musculus with 8 samples.

Results

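Prostaglandins and leukotrienes are lipid mediators made from arachidonic acid, and 10 genes that encode the enzymes of their synthesis were followed in lung neutrophils during pneumococcal pneumonia. They were taken as a fixed list of gene symbols, Pla2g4a, Ptgs1, Ptgs2, Ptges, Alox5, Alox5ap, Lta4h, Ltc4s, Alox12 and Alox15, and all 10 had 1 matched row each among the 19836 gene symbols measured. Neutrophils came from wild type mice aged 6 to 12 weeks per the labels. The study's methods give a narrower age range within that one, name C57BL/6J females as the mice bought to found the colony, and describe the mice studied as matched for age and sex. The left lung had received Streptococcus pneumoniae (SP) or phosphate-buffered saline (PBS) by the trachea, 2.3 µl for each g of mouse, and after 24 h the cells were collected from lung digests on magnetic beads with an antibody to Ly6G, a neutrophil surface protein. Each group held 4 samples, each measured on its own Affymetrix Mouse Gene 1.1 ST array, so precision is limited by the number of arrays. The labels do not say how many mice made up a sample, and the study's text describes a sample as coming from 1 mouse. Per the study's methods, purity was assessed on stained cells of the pneumonia samples and was high. The few other cells there mostly looked like alveolar macrophages and rarely like eosinophils. No such assessment was described for the PBS samples, although the study states high Ly6G mRNA in all samples.

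In this pathway a phospholipase first frees arachidonic acid from membranes. Cyclooxygenases then turn it into prostaglandin H, from which terminal synthases make the individual prostaglandins and thromboxane. In the other branch, arachidonate 5-lipoxygenase, helped by its activating protein in the nuclear envelope, makes leukotriene A, which one enzyme hydrolyses to leukotriene B, a strong attractant of neutrophils, and another joins to glutathione to give leukotriene C. Neutrophils are known as a source of leukotriene B, and prostaglandin E is known as a mediator of fever, pain and vessel dilation.

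Of the 10 genes, Ptges was higher in SP by 7.92-fold, and Alox15, Alox5, Ltc4s, Lta4h and Ptgs1 were lower, by 2.57-, 1.85-, 1.83-, 1.71- and 1.55-fold. Pla2g4a, Ptgs2, Alox5ap and Alox12 did not pass the threshold, which was an adjusted p of 0.05 or less in limma's test over all 24625 rows. Thus 5 genes were called lower, where 22.6% of all rows were, and 1 was called higher, where 21.5% were. Over both directions 6 of 10 were called against 44.1% of all rows. With a difference of at least 2-fold as well, 1 gene was lower (11.3% of all rows) and 1 was higher (6.37% of all rows). The values of the SP and PBS groups did not overlap for 6 of the 10 genes, against 49.0% of all rows. The median difference of the 10 genes was -0.70 log2 units and that of all rows was 0.10. The share called lower was thus above that of all rows and the share called higher below it, but the split of calls depended on the scaling. With each array centred on its median, 3 of the 10 genes were called lower, against 16.4% of all rows, and 1 was called higher, against 57.7%.

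**Figure D1:**
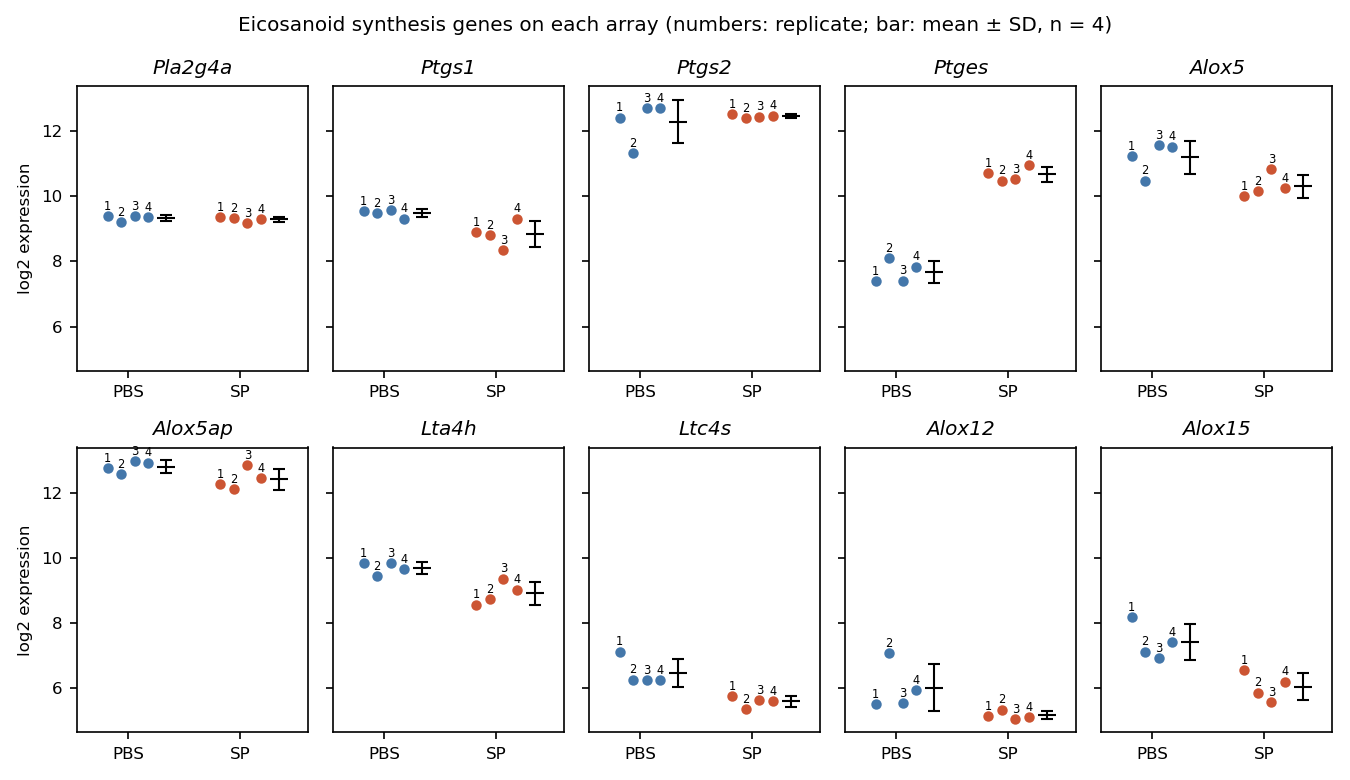
Log2 expression (y axis) of the 10 synthesis genes on each of the 4 PBS and 4 SP arrays, with replicate numbers above the points and the mean ± SD (n = 4) beside them. The SP values of Ptges lie about 3 log2 units above the PBS values, Ptgs2 is bright in both groups apart from PBS replicate 2, and the Alox15 values of SP all lie below those of PBS.

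Promoter sequences are shown for 3 genes that differ in outcome: Ptges, the gene that rose, Ptgs2, which was bright in both groups, and Alox5, which was lower. RefSeq's table for the mouse assembly GRCm38.p6 held promoters of 8 of the 10 genes and had no entry for Alox5ap or Alox15. Each window ran from 250 bases before to 50 bases after the annotated start of transcription. Capitals mark exact matches, on either strand, to a GC box (GGGCGG), an E-box (CACGTG), the CRE half-site (TGACG), a palindromic C/EBP site (TTGCGCAA) or a TATA box (TATAAA). The windows lie at chr2:30903248-30903547 on the minus strand for Ptges, chr1:150099781-150100080 on the plus strand for Ptgs2 and chr6:116461129-116461428 on the minus strand for Alox5.
Ptges: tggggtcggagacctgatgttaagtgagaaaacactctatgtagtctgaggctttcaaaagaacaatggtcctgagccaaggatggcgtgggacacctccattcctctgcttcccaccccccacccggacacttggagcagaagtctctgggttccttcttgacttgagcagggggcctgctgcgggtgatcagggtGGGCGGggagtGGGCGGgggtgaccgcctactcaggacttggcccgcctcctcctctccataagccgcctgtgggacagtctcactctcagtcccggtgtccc
Ptgs2: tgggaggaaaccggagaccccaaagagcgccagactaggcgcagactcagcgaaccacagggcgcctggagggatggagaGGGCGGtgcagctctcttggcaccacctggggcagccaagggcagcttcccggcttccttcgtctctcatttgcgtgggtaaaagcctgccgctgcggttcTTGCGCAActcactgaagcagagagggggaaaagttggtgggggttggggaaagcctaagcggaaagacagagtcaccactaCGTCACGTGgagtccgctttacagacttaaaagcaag
Alox5: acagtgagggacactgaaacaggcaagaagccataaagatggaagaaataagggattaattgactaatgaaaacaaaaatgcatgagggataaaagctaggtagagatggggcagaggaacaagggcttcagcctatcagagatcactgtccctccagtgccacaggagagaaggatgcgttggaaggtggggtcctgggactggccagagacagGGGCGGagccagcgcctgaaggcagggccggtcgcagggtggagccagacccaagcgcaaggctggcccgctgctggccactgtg

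Ptges held 2 GC boxes, which began 53 and 42 bases before the start. Ptgs2 held 1 GC box 170 bases and 1 palindromic C/EBP site 69 bases before the annotated start. Just after that start it held an E-box and a CRE half-site that overlapped each other. Alox5 held 1 GC box, 35 bases before the start. Over all 32851 windows of this length, a GC box was found in 35.7%, an E-box in 7.15%, a CRE half-site in 20.8%, the C/EBP palindrome in 0.183% and a TATA box in 13.6%. These are matches of letters, with no measurement of binding. Positions are counted from the annotated start, and whether transcription begins there was not tested, so sites placed after it may lie before the start in use. On the same assembly, Ptgs2 is the next protein-coding gene after Pla2g4a on chromosome 1, and Alox12, Alox12e and Alox15 follow each other on chromosome 11.

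Release of arachidonate was represented by Pla2g4a (NM_008869), the cytosolic phospholipase A2 that is selective for arachidonate. Its values were 9.38, 9.20, 9.38 and 9.36 in PBS replicates 1 to 4 and 9.37, 9.33, 9.17 and 9.29 in SP. The groups overlapped, and the difference of -0.04 log2 units (95% confidence interval -0.22 to 0.14, adjusted p = 0.648) kept within that narrow range. With each array centred on its median it was 0.24 (adjusted p = 0.0584).

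The cyclooxygenase branch was compared next. Ptgs2 (NM_011198) encodes the inducible cyclooxygenase, COX-2, and was among the brightest genes in both groups. Its values were 12.41, 11.32, 12.70 and 12.71 in PBS and 12.53, 12.40, 12.44 and 12.47 in SP. All SP values lay within the range of the PBS values, and PBS replicate 2 was lower than the other 7 arrays. Means were 12.29 ± 0.66 for PBS and 12.46 ± 0.05 for SP (SD, n = 4), with a difference of 0.17 log2 units (95% confidence interval -0.48 to 0.83, adjusted p = 0.616). The direction rested on PBS replicate 2. Without it the difference was -0.15 (adjusted p = 0.256).

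Ptgs1 (NM_008969) encodes COX-1, the cyclooxygenase present in many resting cells. It lay at 9.54, 9.49, 9.57 and 9.31 in PBS and at 8.91, 8.80, 8.35 and 9.31 in SP. SP replicate 4 and PBS replicate 4 were the same to 2 decimals, the first being lower by less than that, so the groups were counted as not overlapping. The other 3 SP values lay clearly below all PBS values, with SP replicate 3 the lowest. The difference was -0.64 ± 0.18 log2 units (SE, adjusted p = 0.0240). This call was narrow, since the adjusted p was above 0.05 without PBS replicate 1, 2 or 3 or SP replicate 2 (up to 0.0619), with centred arrays (-0.35, 0.0785) and in the methods' t-test (0.0511).

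Ptges (NM_022415) encodes microsomal prostaglandin E synthase-1, the inducible enzyme that acts after COX-2 to make prostaglandin E. It lay at 7.40, 8.09, 7.41 and 7.84 in PBS and at 10.71, 10.48, 10.52 and 10.96 in SP. Every SP value was more than 2 log2 units above every PBS value, and PBS replicate 2 was the highest of its group. The mean rose from 7.68 ± 0.34 to 10.67 ± 0.22 (SD, n = 4), a difference of 2.99 ± 0.18 log2 units (SE, adjusted p = 1.29e-05). Only 160 of the 19836 symbols had a larger difference. The difference stayed between 2.89 and 3.27 over all 18 settings, and each of them called it.

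Whether enzymes of 1 branch changed unequally was asked by the difference between 2 genes within an array, whose change does not depend on how arrays are centred. Levels of different genes cannot be compared on these arrays, so only the change between groups is read. Of 4 pairs compared, Ptgs2 minus Ptges fell from 5.01, 3.24, 5.29 and 4.87 in PBS to 1.82, 1.92, 1.92 and 1.51 in SP. The groups did not overlap, and Ptges had risen by 2.81 log2 units more than Ptgs2. Ptgs2 was very bright, and a rise of so bright a signal may be compressed, which was not tested. The exact two-sided permutation test gave its smallest possible value over 70 arrangements, 0.0286, which was 0.114 after adjustment over the 4 pairs. Limma, fitted to the pair beside all rows and added after the data were seen, gave an adjusted p of 0.000867. The change of Ptgs2 minus Ptgs1 was 0.81, with overlapping groups (2.81 ± 0.68 in PBS, 3.62 ± 0.38 in SP, SD, n = 4; exact permutation p = 0.0571, adjusted 0.114; limma adjusted p = 0.0803).

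**Figure D2:**
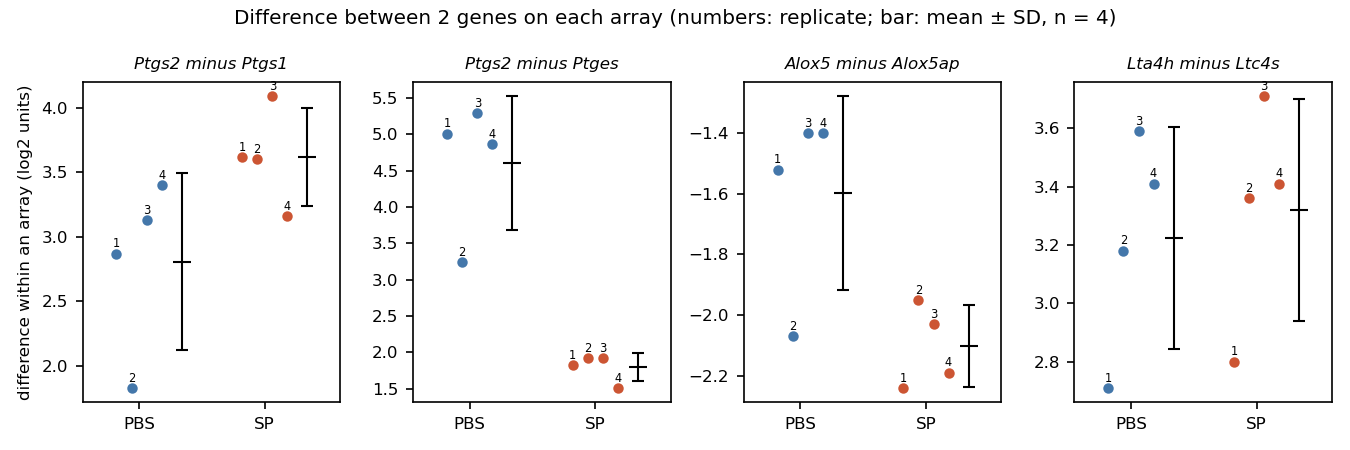
Difference in log2 expression between 2 genes on the same array (y axis, scaled to each panel) for the 4 pairs, with replicate numbers and the mean ± SD (n = 4) of each group. Ptgs2 minus Ptges separates the groups, at 3.24 to 5.29 in PBS and 1.51 to 1.92 in SP, while the other 3 pairs overlap.

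In the leukotriene branch, 3 of 4 genes were called lower (22.6% of all rows) and none higher (21.5%), with a median difference of -0.82 log2 units and no gene at 2-fold. The call of 1 of the 3, Alox5, depended on single samples. Alox5 (NM_009662) encodes 5-lipoxygenase, the enzyme that commits arachidonate to leukotrienes. It lay at 11.22, 10.48, 11.57 and 11.52 in PBS and at 10.01, 10.15, 10.82 and 10.25 in SP. SP replicate 3 lay above PBS replicate 2, and all other SP values lay below all PBS values. Means were 11.20 ± 0.50 for PBS and 10.31 ± 0.35 for SP (SD, n = 4), with a difference of -0.89 ± 0.27 (SE, adjusted p = 0.0273). The call was lost without PBS replicate 1, 3 or 4 or SP replicate 1, 2 or 4 (up to 0.0733), with centred arrays (-0.61, 0.0759) and in the methods' t-test (0.0603). Without PBS replicate 2 the difference was -1.13, and without SP replicate 3 it was -1.06.

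Alox5ap (NM_009663) encodes FLAP, the membrane protein that presents arachidonate to 5-lipoxygenase. It was very bright on all arrays, at 12.74, 12.56, 12.97 and 12.92 in PBS and 12.25, 12.10, 12.84 and 12.44 in SP. SP replicate 3 lay within the PBS range and the other SP values below it. The difference of -0.39 ± 0.17 (SE) was not called (adjusted p = 0.0904), but it was without SP replicate 3 (-0.53, 0.0127), with array weights (-0.60, 0.00187) and after a further quantile normalization (-0.59, 0.0147). With centred arrays it was -0.11 (0.627). The change of Alox5 exceeded that of Alox5ap by -0.50, with overlapping groups (exact permutation p = 0.0857, adjusted 0.114; limma adjusted p = 0.0336).

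Lta4h (NM_008517) encodes leukotriene A4 hydrolase, which makes leukotriene B. It lay at 9.83, 9.44, 9.83 and 9.65 in PBS and at 8.56, 8.72, 9.36 and 9.02 in SP. The groups did not overlap, although SP replicate 3 came close to PBS replicate 2. The difference of -0.77 ± 0.18 log2 units (SE, adjusted p = 0.00892) was called under all 18 settings, and the value nearest to 0 was -0.49, with centred arrays.

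Ltc4s (NM_008521) encodes leukotriene C4 synthase, the other enzyme that uses leukotriene A. It was dim, at 7.12, 6.26, 6.24 and 6.24 in PBS and 5.76, 5.36, 5.64 and 5.61 in SP. All SP values lay below all PBS values, and PBS replicate 1 stood well above the rest. For scale, 3 Y-linked genes (Ddx3y, Kdm5d and Uty) read 4.33 to 4.90 on all 8 arrays, and differences of genes near so dim a level may be understated. Whether all mice studied were female is not stated, so these readings served as a scale for dim signals and not as a measured background. The difference of Ltc4s was -0.87 ± 0.21 (SE, adjusted p = 0.0102). It remained called in each of the 17 settings that tested it, between -0.96 and -0.59. The change of Lta4h minus Ltc4s was 0.10, with a 95% confidence interval of -0.44 to 0.64 by limma (exact permutation p = 0.657).

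The last 2 genes encode lipoxygenases that act at other carbons of arachidonate. Alox15 (NM_009660), the enzyme of mouse macrophages and eosinophils whose products include precursors of lipoxins, lay at 8.17, 7.12, 6.92 and 7.42 in PBS and at 6.55, 5.86, 5.58 and 6.20 in SP. The groups did not overlap, and replicate 1 was the highest of each. In SP the Alox15 values came down to the dim range of Ltc4s, where differences may be understated. The mean fell from 7.41 ± 0.55 to 6.05 ± 0.42 (SD, n = 4), a difference of -1.36 ± 0.30 (SE, adjusted p = 0.00698), called under all settings. Alox12 (NM_007440), the platelet enzyme, lay at 5.51, 7.08, 5.54 and 5.94 in PBS and at 5.14, 5.34, 5.05 and 5.12 in SP. All SP values lay below all PBS values, and PBS replicate 2 stood more than 1 log2 unit above the others. The difference of -0.85 ± 0.32 (SE) was not called (adjusted p = 0.0604). Without PBS replicate 2 it was smaller, -0.50, and called (0.0211), and without PBS replicate 3 it was -1.01 and called (0.0484).

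**Figure D3:**
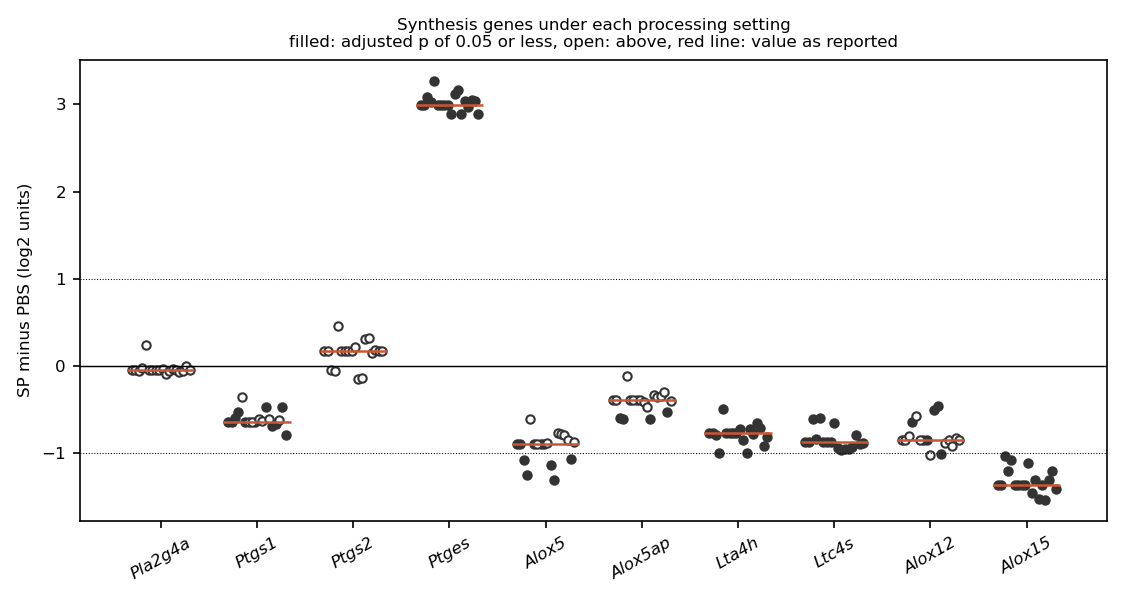
Difference between SP and PBS (log2 units, y axis) of each synthesis gene under every processing setting, with filled points where the adjusted p was 0.05 or less and a red line at the value as reported. Ptges, Lta4h, Ltc4s and Alox15 keep filled points throughout, whereas Ptgs1, Alox5, Alox5ap and Alox12 have both kinds.

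Cells other than neutrophils can carry these genes, and in bulk samples fewer cells of a type and less RNA per cell cannot be told apart. The mean of 9 neutrophil markers was 12.24 to 12.58 on the PBS arrays and 11.69 to 12.83 on the SP arrays, with SP replicate 3 the highest and 3 of 9 genes called lower (Retnlg, Mmp9 and Mmp8). Ly6g had no matched row. Lung cell markers were lower in SP in all 7 measured genes of alveolar type 2 cells (12.16 to 12.66 in PBS, 10.31 to 11.67 in SP), 6 of 8 of endothelium (10.44 to 11.35 and 8.95 to 10.11), all 6 of ciliated epithelium, all 4 of club cells, 4 of 5 of alveolar type 1 cells, all 3 of mesothelium and all 5 of B cells. Of 7 alveolar macrophage genes 4 were lower and 1 was higher (8.90 to 9.58 and 7.84 to 8.49). Of 7 monocyte and macrophage genes 2 were higher and none lower, Adgre1 by 2.41-fold (adjusted p = 0.0223) and Ccr2 by 1.85-fold (0.00124), with a list mean of 8.20 to 9.10 in PBS and 8.16 to 9.56 in SP. Of 8 dendritic cell genes 1 was higher and 2 lower, of 5 T cell genes 1 was higher, and of 8 fibroblast and smooth muscle genes 1 was lower. For all these lists the shares of all rows were 21.5% called higher and 22.6% called lower. The part of these cells in the differences of the synthesis genes and of the other pathway genes below, higher or lower, was not tested.

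Some arrays stood apart in ways that touched single genes. PBS replicate 2 was the array farthest from its group mean for 7 of the 10 genes, with the lowest PBS values of Ptgs2, Alox5, Alox5ap, Lta4h and Pla2g4a and the highest of Ptges and Alox12. It also had the lowest neutrophil mean (12.24) and the highest means of alveolar type 2 cells (12.66) and endothelium (11.35) among PBS arrays. The platelet markers varied among PBS arrays without a shared order. Ppbp (8.98, 10.07, 8.36 and 8.41), Itga2b, Treml1 and Itgb3 were highest on PBS replicate 2, as Alox12 was, whereas Pf4 (8.36, 8.03, 7.70 and 7.87) and Gp9 were highest on replicate 1, and Gp1bb was highest on replicate 3 and lowest on replicate 2. The list of 7 genes had a mean of 6.68 to 7.14 in PBS and 6.53 to 6.85 in SP, with 2 genes called lower and 1 higher. SP replicate 3 was farthest from its group mean for 5 of the 10 genes. Among SP arrays it had the highest neutrophil mean (12.83), with Camp at 10.94 and Ngp at 13.34. It had the lowest SP means of ciliated epithelium (6.61), club cells (11.15), alveolar type 1 (8.27) and type 2 cells (10.31). Its means of endothelium (8.95), mesothelium (5.86), fibroblasts and smooth muscle (7.37) and monocytes and macrophages (8.16) were lowest too. PBS replicate 1, which had the highest Ltc4s and Alox15, also had the highest PBS means of the eosinophil (6.96) and alveolar macrophage (9.58) lists. These lists were not alone, as that array was also highest for monocytes and macrophages (9.10), dendritic cells (6.25), B cells (9.07) and T cells (6.04). The same held for fibroblasts and smooth muscle (8.95), mesothelium (10.99) and mast cells and basophils (5.41), so no single cell type stood out there. Of the 7 eosinophil genes, Ccr3 (7.85, 4.97, 6.37 and 5.95 in PBS), Ear1, Ear6 and Siglecf were highest on that array, while the granule genes Prg2 (4.31 ± 0.09 in PBS) and Epx (4.20 ± 0.04) read no higher than the Y-linked genes there. Between groups, Ear6 (by 2.38 log2 units) and Prg2 (0.44) were higher in SP, Ear1 was lower (-1.88), and the other 4 were not called. The mean of 7 mast cell and basophil genes overlapped between groups, at 5.26 to 5.41 in PBS and 5.25 to 5.42 in SP. Without PBS replicate 2 and SP replicate 3, left out together after the data were seen, Ptges differed by 3.17 and Alox15 by -1.30. Alox5 then differed by -1.30 and Alox5ap by -0.61. These arrays held the lowest PBS and highest SP values of Alox5 and Alox5ap, so the larger falls of both followed from that choice.

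**Figure D4:**
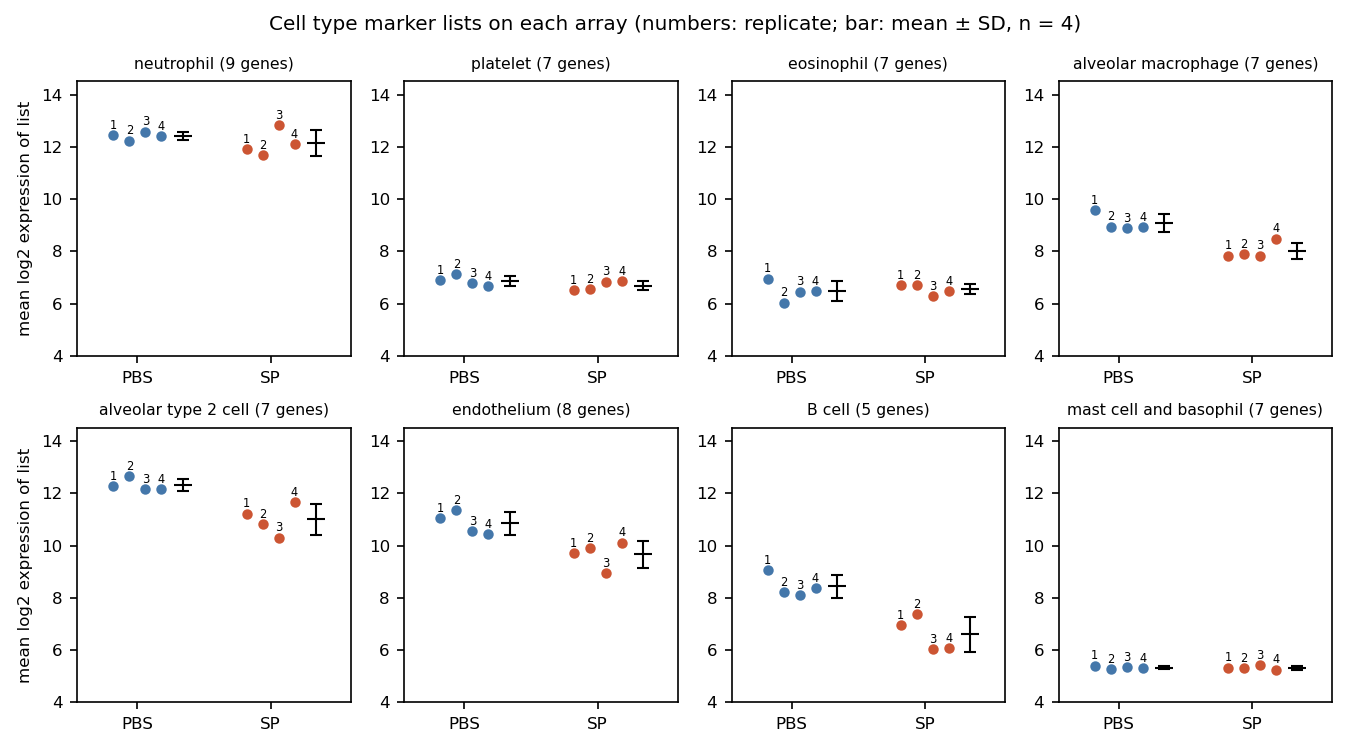
Mean log2 expression (y axis) of 8 lists of cell type markers on each array, with replicate numbers and the mean ± SD (n = 4) of each group. Neutrophil markers are bright in both groups, at 11.69 to 12.83, and the alveolar type 2, endothelial, B cell and alveolar macrophage lists are lower in SP.

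Other genes of the pathway placed these enzymes in context. Of 65 further genes listed, 63 had a matched row, and 14 were called higher (21.5% of all rows) and 19 lower (22.6%), with 7 (6.37%) and 8 (11.3%) of them at least 2-fold. With arrays centred on their medians the calls were 28 higher (57.7% of all rows) and 12 lower (16.4%).

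Among 9 terminal synthases, 2 were higher (21.5% of all rows), 3 lower (22.6%) and 4 not called. Hpgds, the haematopoietic synthase of prostaglandin D, rose 8.78-fold, with means of 5.96 ± 0.25 and 9.09 ± 0.45 (SD, n = 4, adjusted p = 2.56e-05), and its difference of 3.13 log2 units stayed between 2.98 and 3.42 over all 18 settings. Cbr1, a carbonyl reductase that can convert prostaglandin E to F, was 4.69-fold lower (adjusted p = 0.000259), and Akr1b3, an aldose reductase with prostaglandin F synthase activity, 2.81-fold lower (0.000692). The lung cell markers named above were lower in SP as well, and the share of lung cells in these falls was not tested. The brightest of the list was Ptges3, the cytosolic prostaglandin E synthase that is also an Hsp90 co-chaperone, at 11.49 ± 0.20 in PBS and 11.08 ± 0.07 in SP (adjusted p = 0.0172). It was thus lower where Ptges was higher, except that with centred arrays its difference of -0.13 was not called (adjusted p = 0.280).

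Of 11 further phospholipases measured, 1 was higher (21.5% of all rows) and 2 were lower (22.6%). Pla2g1b, a secreted phospholipase, was both the brightest of the list and 2.59-fold lower (8.67 ± 0.18 and 7.29 ± 0.47, adjusted p = 0.00152). For the return of arachidonate into membranes, 2 of 5 genes were higher (21.5% of all rows) and 2 lower (22.6%). Acsl1, which activates long-chain fatty acids, was 2.44-fold higher (adjusted p = 0.00523), while Acsl4, a relative that prefers arachidonate, lay at 11.38 ± 0.28 in PBS and 10.78 ± 0.33 in SP (adjusted p = 0.0324). This call was lost in 7 of 17 alternatives, among them without PBS replicate 1 or 2 or SP replicate 1 or 2, in the methods' t-test and with centred arrays (-0.33, 0.124). The 4 other lipoxygenase genes were at 4.32 to 5.05 on every array, close to the Y-linked level. Alox12e, the brightest of them, differed by -0.05. All 3 microsomal glutathione transferases, relatives of Ltc4s and Alox5ap, were lower (22.6% of all rows). Mgst3 was 3.98-fold lower (adjusted p = 0.000225) and Mgst1, the brightest, 1.66-fold lower (0.00467), or -0.45 log2 units with centred arrays against -0.73.

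Of 12 genes of inactivation and export, 3 were higher (21.5% of all rows) and 4 lower (22.6%). Hpgd, the dehydrogenase that inactivates prostaglandins, fell 3.09-fold, with means of 11.59 ± 0.37 and 9.96 ± 0.24 (SD, n = 4, adjusted p = 0.000342), while Slco2a1, the transporter that takes up prostaglandins, fell 2.04-fold (0.0128). Both were bright in PBS, where the lung cell markers named above were also high, and the share of lung cells in their values was not tested. Abcc1, which exports leukotriene C, was 5.39-fold higher, from 9.27 ± 0.20 to 11.70 ± 0.32 (adjusted p = 2.42e-05), in contrast to Ltc4s. Ggt1, which converts leukotriene C to D, was 2.50-fold lower with overlapping groups (adjusted p = 0.0326), a call lost without PBS replicate 1, 3 or 4 or SP replicate 1, 2 or 4 and in the methods' t-test. Cyp4f18, which oxidises leukotriene B in mouse neutrophils, was the brightest of the list (11.85 ± 0.63 in PBS, 12.68 ± 0.22 in SP, adjusted p = 0.0470). Its call was lost in 7 of 17 alternatives, among them without PBS replicate 1 or SP replicate 1, 2 or 3, in the methods' t-test and after a further quantile normalization. Without PBS replicate 2 its difference was 0.53 instead of 0.83, still called (0.0384).

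Of 6 regulators of these enzymes, 1 was higher (21.5% of all rows) and 3 were lower (22.6%). Mapkapk2, a kinase that phosphorylates 5-lipoxygenase, was 2.74-fold higher (11.36 ± 0.20 and 12.81 ± 0.10, adjusted p = 3.66e-05), and Mapk14, the p38 kinase that activates it, was 2.69-fold lower (0.000198). Of 13 receptors for these lipids, 4 were higher (21.5% of all rows) and 2 lower (22.6%). Of the prostaglandin E receptors, Ptger2 and Ptger4 rose 4.54-fold (adjusted p = 0.000184) and 2.23-fold (0.0113). The dimmer Ptger1 was lower (-0.56 log2 units, adjusted p = 0.00172) and Ptger3 was not called (-0.07, 0.501). The prostacyclin receptor Ptgir rose 2.72-fold (0.00626). Without PBS replicate 2 and SP replicate 3, the difference of Ptger4 was 0.77 log2 units instead of 1.16. Ltb4r1, the main leukotriene B receptor, lay at 8.41 ± 0.75 and 8.24 ± 0.25 (adjusted p = 0.688). Ltb4r1, Ptger1 and Ptger3 were named after their values were seen.

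**Figure D5:**
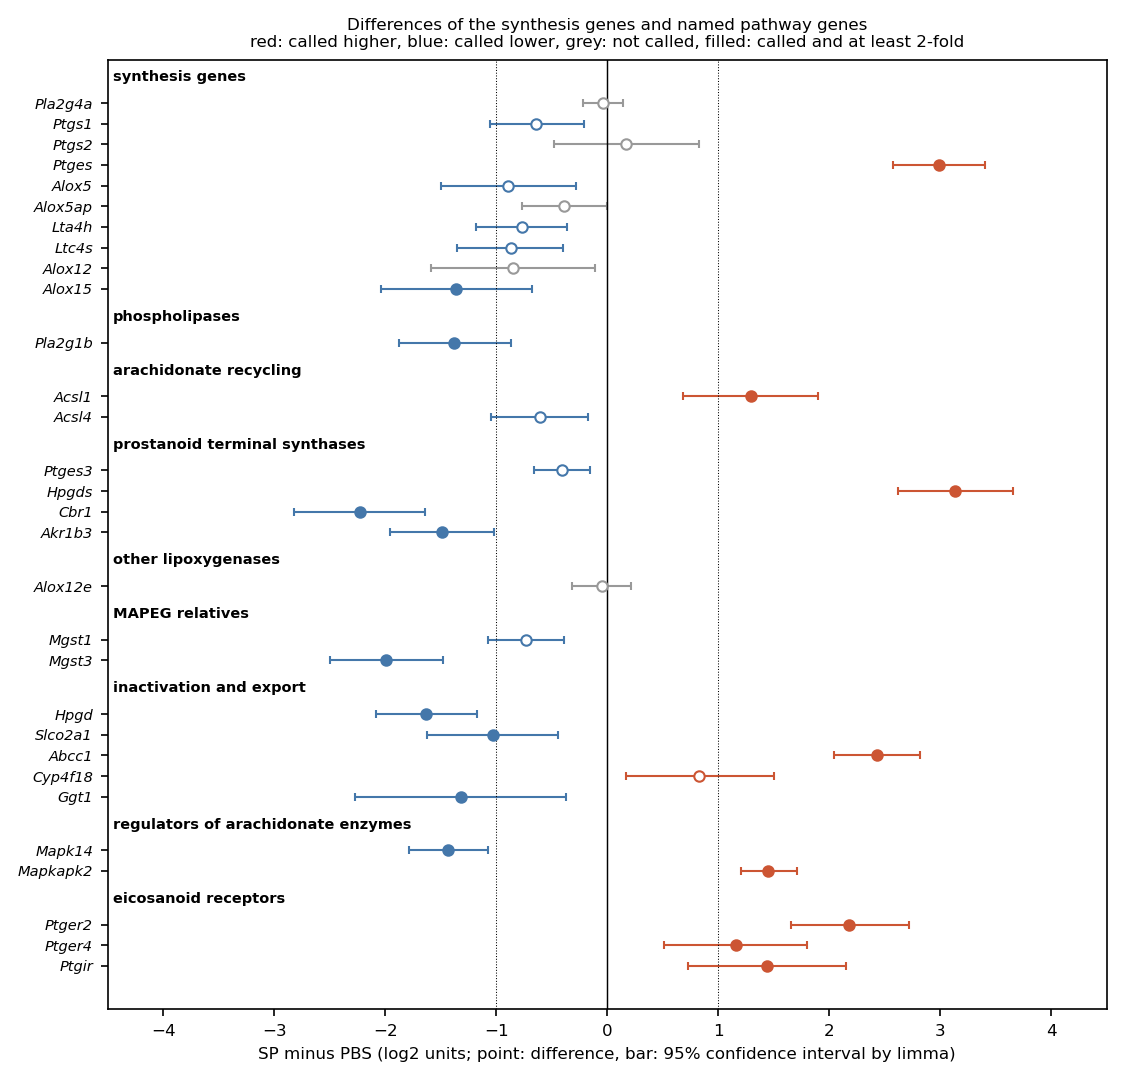
Difference between SP and PBS (log2 units, x axis) with its 95% confidence interval by limma for the 10 synthesis genes and the named genes of 8 pathway lists. Points are red where called higher, blue where called lower and grey where not called, and filled where the call was at least 2-fold. Ptges (2.99), Hpgds (3.13), Abcc1 (2.43) and Ptger2 (2.18) lie farthest to the right, and Cbr1 (-2.23) and Mgst3 (-1.99) farthest to the left.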

How the data were processed

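The authors made the deposited log2 values from 8 Affymetrix arrays by robust multi-array averaging, with corrections for background, probe sequence and GC content, then quantile normalization and median polish, and joined probesets by gene or transcript accession. The submitters' processing notes name Affymetrix Expression Console, RMA and Partek. The deposited values are relative within an array, so a change in total RNA per cell cannot be read, and bright signals may be compressed. No genome build is attached to them.

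Row identifiers were matched to RefSeq symbols of GRCm38.p6 (19915 of 24625 rows, 80.9%). Of several rows of 1 symbol, the one with the highest mean stood for the gene. SP was compared with PBS by limma (version 3.58.1, R 4.3.3; lmFit, eBayes, no covariate), in two-sided tests adjusted over all rows by Benjamini-Hochberg. Pairs of genes were compared by an exact permutation test in Python 3.11.15. The fit was tested on simulated data. Named genes were the 10 synthesis genes, pathway genes called at 2-fold and the brightest of each pathway list. The genes, lists and pairs were chosen with earlier results of these data known. Alternatives were array weights, the replicate number as a block, centred arrays, a further quantile normalization, 1 row per symbol, dim rows left out, a robust prior with trend, leaving out each sample and the methods' t-test, which stands for their analysis of variance between both groups. PBS replicate 2 and SP replicate 3 were left out together, and limma was run on pairs, after the data were seen.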

Additional observations from a re-analysis of the deposited data

Results flagged for a closer look

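In 2 of 60 groups of 4 samples examined, 1 sample lay far from the other 3 by Dixon's ratio, which chance alone would give in about 1 of 20 groups. Ltc4s in PBS replicate 1 was at 7.12, with the other PBS samples at 6.24 to 6.26. Pla2g4a in PBS replicate 2 was at 9.20, with the others at 9.36 to 9.38, a gap of less than 0.2 log2 units.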

How the results depend on the processing

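Ptges, Lta4h, Ltc4s and Alox15 kept their direction and their call in every alternative that tested them, and Ltc4s and Alox12 were not tested with dim rows left out. Over all alternatives, single values of the 10 synthesis genes kept direction and call in 137 cases, lost the call in 15, gained one in 11 and turned in 5. Alox5 lost its call in the methods' t-test (-0.89) and with centred arrays (-0.61), was -1.30 without PBS replicate 2 and SP replicate 3, and ranged from -1.13 to -0.77 without any 1 sample. Ptgs1 lost its call in the methods' t-test and with the replicate block (-0.64 each) and with centred arrays (-0.35), and ranged from -0.79 to -0.47 without any 1 sample. Alox12 was called with array weights (-0.64), with the replicate block and with the robust prior (-0.85 each), without PBS replicate 2 and SP replicate 3 (-0.46), and ranged from -1.02 to -0.50 without any 1 sample. Alox5ap was called after a further quantile normalization (-0.59), with array weights (-0.60) and with the replicate block (-0.39). It was also called without PBS replicate 2 and SP replicate 3 (-0.61), arrays picked after the data were seen. Without any 1 sample it ranged from -0.53 to -0.29. Ptgs2 turned after a further quantile normalization (-0.04), with array weights (-0.05) and without PBS replicate 2 and SP replicate 3 (-0.14), and ranged from -0.15 to 0.32 without any 1 sample. Pla2g4a turned with centred arrays (0.24). Lta4h minus Ltc4s turned after a further quantile normalization (-0.18) and without PBS replicate 2 and SP replicate 3 (-0.04), and ranged from -0.07 to 0.27 without any 1 sample. By limma over all rows, Ptgs2 minus Ptges (-2.81) and Alox5 minus Alox5ap (-0.50) passed the threshold, which the permutation test adjusted over 4 pairs reached for no pair. Its smallest possible p of 0.0286 becomes 0.114 after that adjustment when 1 pair alone reaches it, so 1 pair alone could not pass. Alox12e turned with centred arrays (0.23) and without PBS replicate 4, and ranged from -0.12 to 0.04 without any 1 sample.

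The number of synthesis genes called lower was 3 with centred arrays (16.4% of all rows) and 3 in the methods' t-test. It was 7 without PBS replicate 2 and SP replicate 3, and 3 to 6 without any 1 sample. Those at least 2-fold lower were 2 with array weights, after a further quantile normalization and without PBS replicate 2 and SP replicate 3, and 1 to 2 without any 1 sample. Shares of all rows were not counted for these other settings, so their counts cannot be set against all rows. Pathway genes called higher were 28 (57.7% of all rows) and lower 12 (16.4%) with centred arrays, where array medians differed by -0.28 (SP minus PBS) before centring. Samples of the same replicate number did not deviate together over all rows (r = 0.0156, 0.0304, 0.350 and -0.274 for numbers 1 to 4), so the numbers were not taken to pair the samples. With the replicate block 6 synthesis genes were called lower and 1 higher, and the share of all rows was not counted there. The pathway genes Acsl4 (-0.61, adjusted p = 0.0906) and Cyp4f18 (0.83, 0.0834) lost their calls with it. The causes of the other changes were not tested. The number of arrays limits what can be seen, and so do dim signals. The other lipoxygenases of the pathway list lay near the Y-linked level. Ltc4s, Alox12 and, in SP, Alox15 (5.58 to 6.55) were dim as well, though above that level.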
